A study of Mus musculus with 32 samples.

Results

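Rods and cones, the light-sensing cells of the retina, share a set of genes for building the outer segment and for transducing light. Of the 34453 genes in the count table, 10 such genes were followed in RNA from the retinal pigment epithelium (RPE), the layer that lies against the photoreceptors: *Crx*, *Prph2*, *Rbp3*, *Rdh12*, *Pdc*, *Rcvrn*, *Guca1a*, *Aipl1*, *Nxnl1*, and *Nxnl2*. They were chosen by function and partly on measured values, since the levels of *Rbp3*, *Nxnl1*, and *Aipl1* had been seen lower in eyes given Nrf2. For that reason the comparison of Nrf2 eyes with control eyes is given below as a description, with no *P* value for these genes.

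The mice were labelled *rd1*, whose *Pde6b* mutation kills the rods and, later, the cones. Each of 16 mice had 1 eye injected with AAV-Best1-Nrf2 plus AAV-Best1-GFP, named the Nrf2 eye. The other eye received AAV-Best1-GFP alone, named the control eye, so that control eyes also carried a virus and GFP. By the methods, the vectors differed in capsid and the combination had a higher total dose. Added vector and Nrf2 therefore cannot be told apart. Best1 is a promoter active in the RPE, and the vector carries human NRF2. RNA was taken at P20 (7 mice, postnatal day 20) and at P40 (9 mice, postnatal day 40), giving 32 libraries with total counts of 16548332 to 50542797. The tissue was an eyecup from which the retina had been lifted off, and the RNA was amplified before sequencing, so limits taken from counts cover counting error only. The methods and the labels give different numbers of *rd1* pairs and the methods also name CD1 mice at P40. The strain at P40 was taken from the labels, and the *rd1* and CD1 pairs that the methods name for P40 add up to the number of P40 pairs labelled *rd1*. Whether some of these were CD1 was not tested. The labels mention separate sequencing runs without assigning libraries to them. All library names at P20 begin with M and all at P40 with A, and what the letters stand for is not given. A difference between these name series cannot be told apart from age.

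The transgene was read first as a check of the labels. Human *NFE2L2* had 1082 to 9506 CPM (counts scaled to equal library sizes) in Nrf2 eyes at P20 and 3205 to 10438 CPM at P40, against 0.924 to 1098 CPM in control eyes at P20 and 0 to 99.2 CPM at P40. Both extremes at P20 went against their labels: the library labelled control of mouse 3 had 1098 CPM, with the next control eye at 154 CPM, and the library labelled Nrf2 of mouse 4 had 1082 CPM, with the next Nrf2 eye at 4810 CPM. Some results at P20 are therefore also given without mice 3 and 4. All other P20 results, among them the counts for the marker lists, include both mice. Among RPE markers, *Rgr* was at 1325 CPM or more in every library and *Rpe65* at 135 CPM or more, whereas *Best1* stayed between 0.274 and 4.18 CPM.

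These 10 genes have distinct roles. *Crx* encodes a homeobox transcription factor that drives photoreceptor genes. *Prph2* encodes a tetraspanin of the disc rims of the outer segment, and *Rbp3* the retinoid carrier that photoreceptors secrete into the matrix facing the RPE. *Rdh12* encodes a retinol dehydrogenase of the inner segment that reduces retinal. *Pdc* (phosducin), *Rcvrn* (recoverin), and *Guca1a* (a guanylate cyclase activator) encode regulators of the light response, acting on transducin, on the kinase of the visual pigment, and on cGMP synthesis. *Aipl1* encodes a chaperone of the phosphodiesterase that *rd1* mice lack in rods, and *Nxnl1* and *Nxnl2* encode the thioredoxin-like rod-derived cone viability factors.

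CRX binds the letters TAATCC and TAATCT, which OTX2, a factor of both photoreceptors and the RPE, also recognizes. The stretches of 250 bases before the RefSeq start sites of 5 of the genes (GRCm38.p6) are shown. They cover genes of the group that moved together (*Rbp3*, *Aipl1*, *Crx*), a gene that did not move with it (*Rdh12*), and the gene without a match (*Pdc*). *Guca1a*, which also moved little with that group and had a match 57 bases before its start, is not shown. They read 5′ to 3′ in the direction of the gene, and capitals mark TAATCC or TAATCT on either strand (GGATTA or AGATTA where the match is on the opposite strand).
Rbp3 (chr14:33953753-33954002, plus strand): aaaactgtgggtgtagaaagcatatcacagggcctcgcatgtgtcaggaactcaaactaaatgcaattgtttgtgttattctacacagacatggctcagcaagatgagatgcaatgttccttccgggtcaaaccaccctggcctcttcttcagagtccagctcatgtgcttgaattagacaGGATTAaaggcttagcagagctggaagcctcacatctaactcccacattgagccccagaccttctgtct
Aipl1 (chr11:72037510-72037759, minus strand): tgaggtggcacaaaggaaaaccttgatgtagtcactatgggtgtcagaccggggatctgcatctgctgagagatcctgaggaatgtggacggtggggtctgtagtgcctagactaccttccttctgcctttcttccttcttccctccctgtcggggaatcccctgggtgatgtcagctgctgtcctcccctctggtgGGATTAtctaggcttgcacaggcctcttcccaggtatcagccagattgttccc
Crx (chr7:15879956-15880205, minus strand): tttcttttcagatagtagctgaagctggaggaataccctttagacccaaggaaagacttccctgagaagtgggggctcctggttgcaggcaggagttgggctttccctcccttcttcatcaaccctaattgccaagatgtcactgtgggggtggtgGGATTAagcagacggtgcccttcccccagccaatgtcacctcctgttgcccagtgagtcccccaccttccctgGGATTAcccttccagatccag
Rdh12 (chr12:79208663-79208912, plus strand): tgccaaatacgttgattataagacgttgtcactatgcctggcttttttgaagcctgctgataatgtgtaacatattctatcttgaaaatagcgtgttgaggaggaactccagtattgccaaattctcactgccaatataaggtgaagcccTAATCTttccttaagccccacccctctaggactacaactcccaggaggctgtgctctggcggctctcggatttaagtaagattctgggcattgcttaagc
Pdc (chr1:150319167-150319416, plus strand): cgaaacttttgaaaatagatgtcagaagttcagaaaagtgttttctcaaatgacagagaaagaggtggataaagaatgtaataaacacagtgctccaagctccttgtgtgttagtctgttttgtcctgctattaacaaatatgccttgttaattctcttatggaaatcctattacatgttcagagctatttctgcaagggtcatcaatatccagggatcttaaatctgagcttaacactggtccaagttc

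A promoter was listed for 9 of the 10 genes, with none for *Rcvrn*. In windows from 250 bases before to 50 bases after the start, TAATCC or TAATCT on either strand occurred in 8 of these 9 promoters (88.9%), against 14.4% of all 32851 promoters in the table. TAATCC was found in 5 of the 9 (7.06% of all promoters) and TAATCT in 3 (8.19% of all). Either motif was found for 59.3% of 27 other photoreceptor genes, 55.6% of 9 rod genes, 4 of 8 cone genes, and 5 of 10 RPE genes. A gene of these lists was counted if any of its listed promoters had a match. The 14.4% is a share of single promoters, so these shares are not on the same footing. In *Rbp3* the match began 69 bases before the start site and in *Aipl1* 53 bases before it, with a further match after the start at position 11. *Crx* had matches 94 and 21 bases before its own start, and *Rdh12* 1 match 100 bases before it. The core of the antioxidant response element that NRF2 binds, TGACNNNGC, was found on neither strand in any of the 9 promoters, against 12.4% of all promoters. TGCTGA, a shorter motif searched on both strands, was found in 4 of the 9 (*Aipl1*, *Nxnl1*, *Rbp3*, and *Rdh12*), against 19.5% of all promoters. These matches describe letters in a window and say nothing of whether a factor was bound.

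With Nrf2, 9 of the 10 genes were lower at P20 and all 10 at P40 in the fit across all genes. Their median log2 fold change was −2.73 at P20, where the median over all genes was −0.04, and −3.31 at P40, where it was −0.03. A fitted change below 0 was seen for 54.7% of all genes at P20 and 53.5% at P40. A change below −1 was seen for 9 of the 10 genes at each age, against 6.73% of all genes at P20 and 4.08% at P40. In every mouse, 7 of the genes were lower in the Nrf2 eye at P20 (2.58% of all genes) and 5 at P40 (1.06% of all genes). Since this contrast took part in choosing the genes, nothing is read from these counts. Without P20 mice 3 and 4, the median at P20 was −2.86, and the 9 genes below 0 ranged from −4.40 (*Aipl1*) to −1.11 (*Nxnl2*, SE 0.53). In these bulk samples, fewer photoreceptor cells or fragments and less RNA per cell cannot be told apart.

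**Figure D1:**
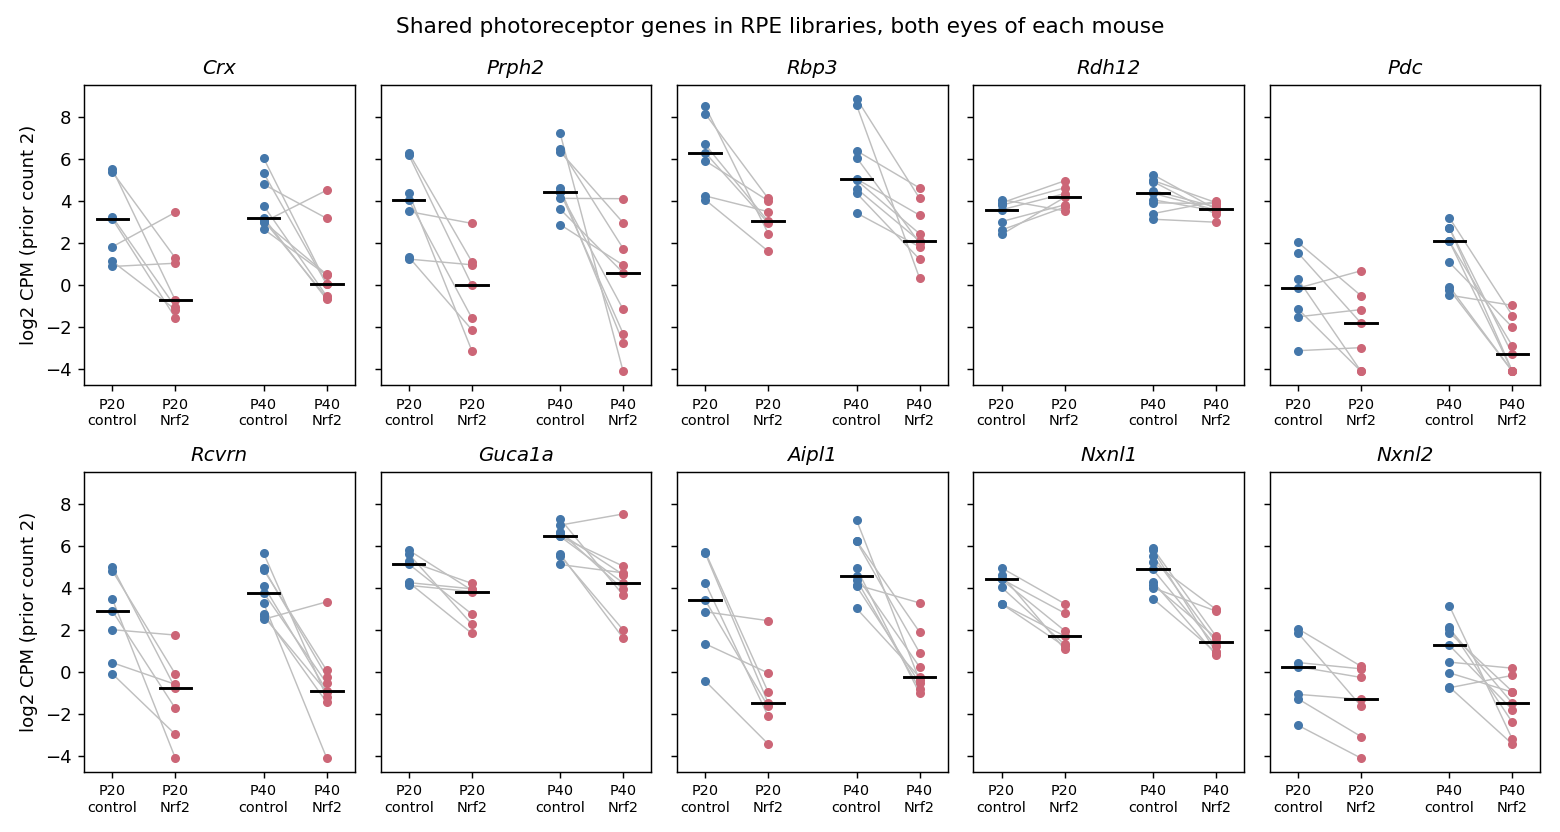
Level of each gene in every library, as log2 CPM with a prior count of 2 on the vertical axis and the 4 groups on the horizontal axis. Each point is 1 eye, gray lines join the eyes of a mouse, and black bars are group medians; the points of *Rdh12* stay in a narrow band whereas those of *Prph2* and *Rcvrn* span many log2 units within a group.

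*Crx* (ENSMUSG00000041578, GRCm38 chr7:15865947-15879968, minus strand) ranged from 1.78 to 45.7 CPM in P20 control eyes, with a median of 8.79 CPM, and from 0.279 to 10.9 CPM in P20 Nrf2 eyes, with a median of 0.544 CPM. At P40, it had 6.25 to 65.3 CPM in control eyes (median 9.10 CPM) and 0.561 to 22.7 CPM in Nrf2 eyes (median 0.967 CPM). The groups overlapped at both ages, at P20 both through Nrf2 mouse 2 at 10.9 CPM and through low control eyes of mice 3 and 6 (1.78 and 2.12 CPM). The Nrf2 eye was lower in 5 of 7 mice at P20 and in 8 of 9 at P40, and the exceptions reached log2 differences of 1.64 in P20 mouse 2 and 1.52 in P40 mouse 6. The fit gave a log2 fold change of −3.22 (SE 1.14) at P20 and −3.34 (SE 0.74) at P40. Those 2 Nrf2 eyes also held the highest summed level of the 13 inner retina genes among Nrf2 eyes of their age. The sums were 583 CPM for P20 mouse 2 and 1494 CPM for P40 mouse 6, against medians of 492 and 296 CPM. At P20 the next sum was close, 523 CPM in mouse 1, whose Nrf2 eye had *Crx* at 0.544 CPM. *Slc6a9* alone had a median of 355 CPM in P20 Nrf2 eyes. The part of inner retina cells in the level of *Crx* was not tested.

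*Prph2* (ENSMUSG00000023978, chr17:46910459-46924933, plus strand) had 2.29 to 78.3 CPM in P20 control eyes (median 16.4 CPM) and 0.0570 to 7.56 CPM in P20 Nrf2 eyes (median 0.939 CPM). In P40 control eyes it had 7.28 to 150 CPM (median 21.5 CPM). In P40 Nrf2 eyes it had 0 to 17.1 CPM (median 1.43 CPM). It was lower in the Nrf2 eye of every mouse at both ages, but the difference in P40 mouse 6 was only −0.02 on the log2 scale. The groups overlapped. On the log2 scale the fitted change was −4.45 (SE 1.14) at P20 and −4.68 (SE 1.09) at P40.

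*Rbp3* (ENSMUSG00000041534, chr14:33954003-33964216, plus strand) had the highest CPM of the 10 genes in single control eyes. It reached 363 CPM in P20 control mouse 1 and 468 CPM in P40 control mouse 1, from lowest values of 16.6 and 10.7 CPM. The medians of the control eyes were 78.6 CPM at P20 and 33.0 CPM at P40. Nrf2 eyes had 2.98 to 17.3 CPM at P20 (median 8.09 CPM) and 1.19 to 24.4 CPM at P40 (median 4.21 CPM). The Nrf2 eye was lower in 7 of 7 and 9 of 9 mice. At P20 the groups met at the lowest control eye, mouse 3 with 16.6 CPM, and the highest Nrf2 eye, mouse 4 with 17.3 CPM, which are the libraries whose transgene went against their labels. The fitted log2 fold change was −3.19 at each age (SE 0.60 at P20 and 0.62 at P40), and −3.17 (SE 0.77) at P20 without mice 3 and 4.

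*Rdh12* (ENSMUSG00000021123, chr12:79208914-79222665, plus strand) was the gene with a higher fitted level in Nrf2 eyes at P20. It had 5.23 to 16.6 CPM in P20 control eyes (median 11.9 CPM) and 11.5 to 31.0 CPM in P20 Nrf2 eyes (median 17.9 CPM), and the Nrf2 eye was the higher one in 6 of 7 mice. At P40, control eyes had 8.67 to 38.0 CPM (median 20.5 CPM) and Nrf2 eyes 7.86 to 15.7 CPM (median 12.1 CPM), and the Nrf2 eye was the lower one in 8 of 9 mice. The groups overlapped at both ages. In the fit, the log2 fold change was 0.80 (SE 0.23) at P20, 1.05 (SE 0.20) without mice 3 and 4, and −0.71 (SE 0.24) at P40. P20 mouse 4 was the mouse with a lower Nrf2 eye at P20.

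Among the regulators of the light response, *Pdc* (ENSMUSG00000006007, chr1:150319417-150333906, plus strand) had the lowest levels. It had 0.0565 to 4.02 CPM in P20 control eyes (median 0.842 CPM) and 0 to 1.53 CPM in P20 Nrf2 eyes (median 0.226 CPM). In P40 control eyes it had 0.656 to 9.10 CPM (median 4.14 CPM), and in P40 Nrf2 eyes 0 to 0.451 CPM (median 0.0431 CPM). At P40 every Nrf2 eye was below every control eye, and 5 of the 9 Nrf2 libraries held 3 counts or fewer, 4 of them none. A floor of 3 counts equals 0.0566 to 0.182 CPM depending on the library. The fitted change of −5.63 (SE 0.96) at P40 therefore depends on how such low counts are treated, and at P20 it was −2.20 (SE 1.11), lower in 4 of 7 mice. The spans of *Pdc* and of *Rcvrn* overlap other genes, but their exons share 0 bases with them.

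*Rcvrn* (ENSMUSG00000020907, chr11:67695326-67703333, plus strand) had 0.876 to 31.8 CPM in P20 control eyes (median 7.37 CPM) and 5.58 to 49.5 CPM in P40 control eyes (median 13.4 CPM). Nrf2 eyes had 0 to 3.29 CPM at P20 (median 0.519 CPM) and 0 to 9.96 CPM at P40 (median 0.474 CPM). The Nrf2 eye was lower in 7 of 7 mice at P20 and in 8 of 9 at P40, the exception being mouse 6. The groups overlapped at both ages. Its fitted log2 fold change was −4.24 (SE 1.11) at P20 and −4.84 (SE 0.81) at P40.

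*Guca1a* (ENSMUSG00000023982, chr17:47394558-47400584, minus strand) had the highest level per kilobase of exon in every group. Control eyes had 17.2 to 55.0 CPM at P20 (median 34.8 CPM) and 34.3 to 155 CPM at P40 (median 86.5 CPM). Nrf2 eyes had 3.49 to 18.3 CPM at P20 (median 13.97 CPM) and 2.97 to 182 CPM at P40 (median 18.6 CPM). The 182 CPM came from P40 mouse 8, whose control eye had 126 CPM, and it was the highest *Guca1a* level of all libraries. No other Nrf2 eye at P40 exceeded 32.4 CPM, and the groups overlapped at both ages. The fitted log2 fold change was −1.70 (SE 0.40) at P20 and −2.24 (SE 0.48) at P40, lower in 7 of 7 and in 8 of 9 mice.

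*Aipl1* (ENSMUSG00000040554, chr11:72027963-72037509, minus strand) had 0.678 to 52.4 CPM in P20 control eyes (median 10.55 CPM) and 0.0343 to 5.32 CPM in P20 Nrf2 eyes (median 0.297 CPM). At P40 it had 8.00 to 149 CPM in control eyes (median 23.4 CPM) and 0.431 to 9.60 CPM in Nrf2 eyes (median 0.779 CPM). Every mouse had the lower level in its Nrf2 eye, while the groups overlapped at both ages. On the log2 scale the fit gave −4.90 (SE 1.13) at P20, a 29.8-fold lower level, and −4.77 (SE 0.62) at P40, a 27.3-fold lower level.

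*Nxnl1* (ENSMUSG00000034829, chr8:71560555-71566601, minus strand) had the smallest SE relative to its change. It had 9.29 to 30.6 CPM in P20 control eyes (median 20.9 CPM) and 2.03 to 9.36 CPM in P20 Nrf2 eyes (median 3.19 CPM). At P40, control eyes had 11.04 to 58.3 CPM (median 29.1 CPM) and Nrf2 eyes 1.68 to 7.76 CPM (median 2.58 CPM), with no overlap. At P20 the groups met only between control mouse 3 (9.29 CPM), control mouse 5 (9.33 CPM), and Nrf2 mouse 4 (9.36 CPM). Its log2 fold change in the fit was −2.27 (SE 0.28) at P20 and −3.28 (SE 0.40) at P40, lower in 7 of 7 and 9 of 9 mice. *Nxnl1* and *Pdc* were the 2 genes with every Nrf2 eye below every control eye at P40 (0.132% of all genes), and at P20 the list had 0 such genes (0.239% of all genes).

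*Nxnl2* (ENSMUSG00000021396, chr13:51171022-51175188, plus strand), the paralog of *Nxnl1*, was less abundant. It had 0.113 to 4.06 CPM in P20 control eyes (median 1.12 CPM) and 0.530 to 8.74 CPM in P40 control eyes (median 2.32 CPM). Nrf2 eyes had 0 to 1.14 CPM at P20 (median 0.343 CPM) and 0.0339 to 1.06 CPM at P40 (median 0.295 CPM), with overlap at both ages. The fitted log2 fold change was −1.66 (SE 0.58) at P20 and −2.89 (SE 0.81) at P40. The Nrf2 eye was lower in 7 of 7 mice at P20 and in 8 of 9 at P40, with P40 mouse 4 at 0.59 in the other direction.

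**Figure D2:**
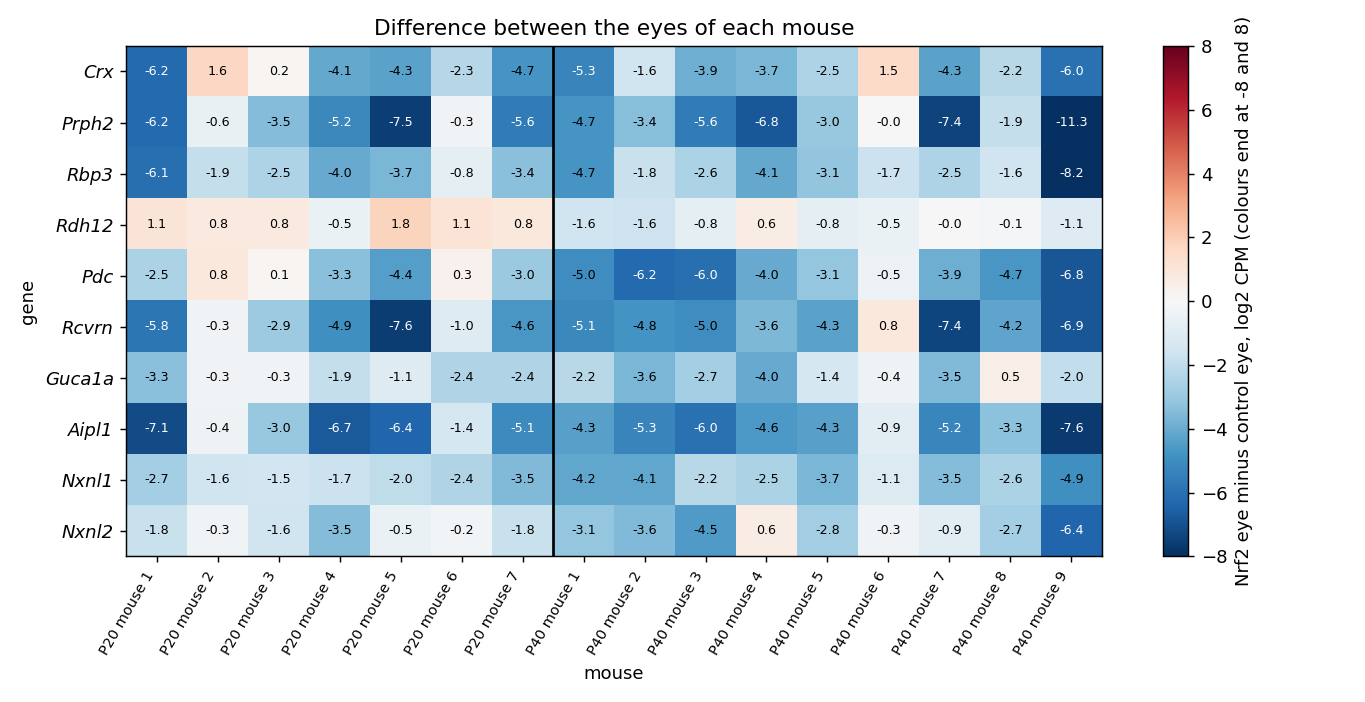
Difference between the Nrf2 eye and the control eye of each mouse in log2 CPM (prior count 2), with genes as rows and the 16 mice as columns; blue is lower and red higher in the Nrf2 eye. *Rdh12* is positive in 6 of 7 mice at P20, and several of the differences nearest to 0 lie in P20 mouse 2 and P40 mouse 6.

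Levels per kilobase of exon allow the genes to be ranked against each other. *Guca1a* led with a median of 39.9 CPM per kb in P20 control eyes and 99.1 CPM per kb in P40 control eyes, and *Pdc* was last in all 4 groups. *Rdh12* was the fifth in P20 control eyes (7.07 CPM per kb) and the third in P40 control eyes (12.2 CPM per kb), but the second in Nrf2 eyes at P20 (10.7 CPM per kb) and P40 (7.22 CPM per kb). In control eyes, the ranges of every pair of neighbours in this order overlapped. In Nrf2 eyes, the ranges of neighbours overlapped except at the step below *Rdh12*, whose lowest eye was above the highest eye of the gene ranked next (*Rbp3* at P20 and *Nxnl1* at P40).

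Most of the genes varied together between eyes of the same group. Over the 32 libraries, after subtraction of group means, *Aipl1* and *Rcvrn* had the highest correlation of log2 CPM (Pearson *r* = 0.892) and *Guca1a* and *Rdh12* the lowest (*r* = −0.173). These last 2 genes also had the lowest median *r* with the other genes, 0.245 for *Guca1a* and 0.214 for *Rdh12*. *Prph2* was closest to *Rcvrn* (*r* = 0.860), *Crx* to *Prph2* (*r* = 0.811), and *Rbp3* to *Aipl1* (*r* = 0.780). These are descriptions across eyes that share mice, depth, and dissection, and 2 of the P20 libraries (control mouse 3 and Nrf2 mouse 4) had similar levels of most of these genes. Outside the list, the 5 genes whose levels most resembled the mean of 9 of the genes, among 15927 genes, were *Sag* (*r* = 0.946), *Rtbdn* (0.932), *Opn1mw* (0.923), *Slc17a7* (0.903), and *Arr3* (0.895). *Sag* encodes rod arrestin, *Opn1mw* and *Arr3* cone opsin and cone arrestin, and *Slc17a7* the glutamate transporter of synaptic vesicles.

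Each of the 10 genes was also set beside marker lists. Each list was taken as the log2 of its summed CPM after subtraction of group means, so its most abundant genes weigh most. The median *r* with this level was 0.685 for 12 cone genes, 0.598 for rod genes, 0.459 for inner retina genes, 0.168 for RPE genes, and −0.01 for macrophage and microglia genes. Over the 38 other genes common to both photoreceptor types the median was 0.358. *Rdh12* had its highest *r*, 0.845, with that list, followed by 0.803 with the Müller glia list, and had 0.481 with the cone genes. Among the most abundant of these 38 genes were *Otx2*, with group medians of 285 to 407 CPM, and *Unc119*, with 222 to 325 CPM. *Rom1* had group medians of 92.1 to 413 CPM and *Abca4* of 167 to 221 CPM. OTX2 is also a factor of the RPE, and the part of RPE transcripts in this *r* was not tested. The Müller glia genes summed to 4726 to 13998 CPM in these RPE libraries. Most of this sum was *Clu*, with group medians of 6154 to 9464 CPM, followed by *Dkk3* at 800 to 1418 CPM. *Aqp4*, *Kcnj10*, and *Slc1a3* of that list had group medians of only 0.271 to 60.9 CPM. *Guca1a* was the least related to the cone genes (*r* = 0.292).

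Summed over the 10 genes, the level was 62.5 to 651 CPM in P20 control eyes (median 179 CPM) and 38.8 to 80.4 CPM in P20 Nrf2 eyes (median 47.6 CPM). At P40 it was 150 to 992 CPM in control eyes (median 219 CPM) and 26.02 to 199 CPM in Nrf2 eyes (median 53.9 CPM). The cone genes summed to 91.4 to 1190 CPM and 69.0 to 174 CPM at P20, and to 365 to 2434 CPM and 79.7 to 615 CPM at P40, in control and Nrf2 eyes respectively. The rod genes summed to 213 to 720 CPM and 123 to 271 CPM at P20, and to 248 to 1107 CPM and 91.4 to 333 CPM at P40. In the same order, the medians of this sum were 323 and 211 CPM at P20 and 539 and 180 CPM at P40. Much of it was 1 gene, *Slc24a1*, with medians of 193 and 166 CPM at P20 and 229 and 150 CPM at P40. The RPE genes summed to 12931 to 27291 CPM in control and 18018 to 31185 CPM in Nrf2 eyes at P20 (medians 19807 and 20895 CPM). At P40 they summed to 11638 to 69164 CPM and 13667 to 71692 CPM (medians 35367 and 19603 CPM), so the groups overlapped. Their most abundant genes at P40 were *Ttr* and *Rgr*. *Ttr* reached 43559 CPM in a control eye and 59345 CPM in an Nrf2 eye, and *Rgr* 14733 and 5869 CPM. Retina was removed before the RNA was taken, and the part of photoreceptor material left on the RPE in the level of the 10 genes was not tested.

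**Figure D3:**
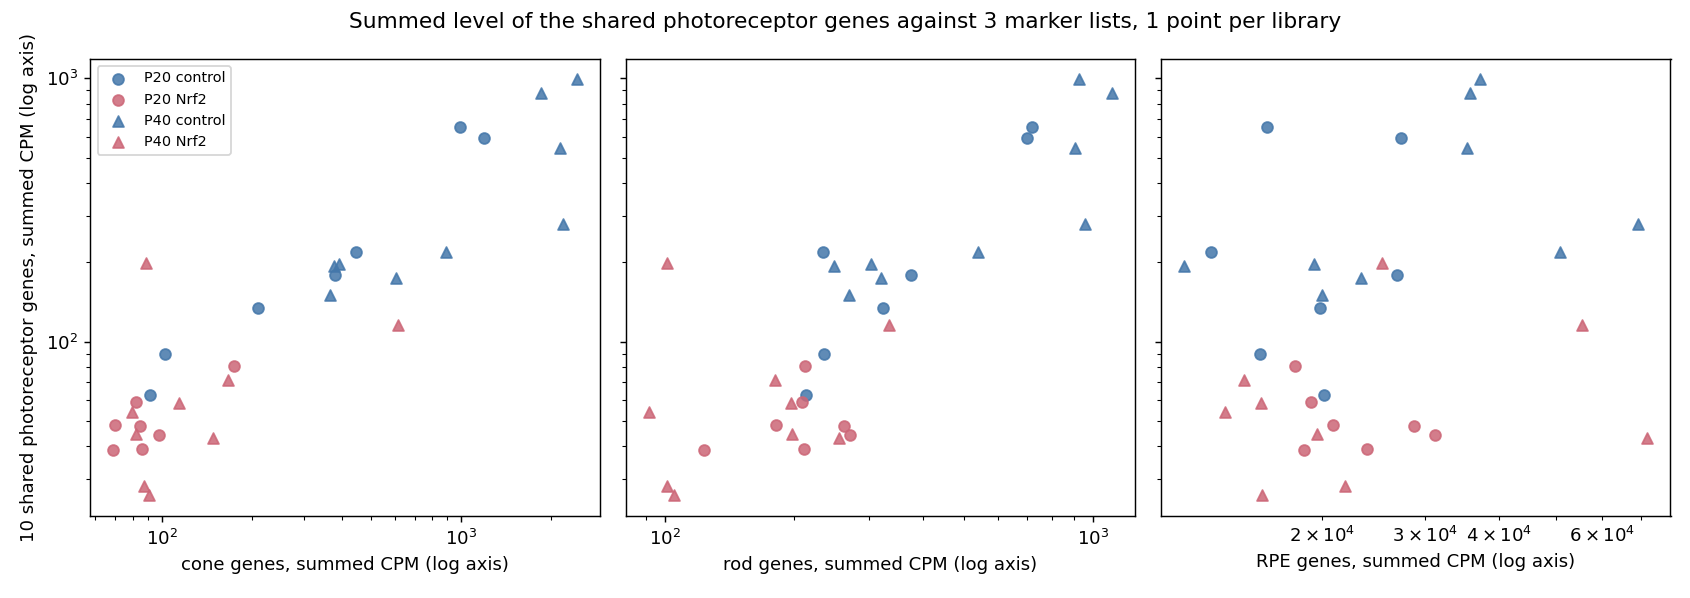
Summed CPM of the 10 genes (vertical, log axis) against the summed CPM of the cone, rod, and RPE lists (horizontal, log axes), with 1 point per library, circles for P20, triangles for P40, blue for control and red for Nrf2 eyes. The 5 control libraries with 542 CPM or more of the 10 genes have 989 CPM or more of the cone genes. The P40 Nrf2 eye at 199 CPM owes its place to *Guca1a*, and *Slc24a1* makes up much of the rod sum.

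Other photoreceptor genes, which were tested, gave the following counts in the same comparison, in which 3.41% of all genes passed at P20 (2.93% as higher) and 4.57% at P40 (3.33% as higher). Of the 12 cone genes, 2 fell with Nrf2 at P20 (0.485% of all genes fell) and 9 at P40 (1.23% of all genes fell), and 0 rose. These included the cone opsin gene *Opn1sw*, at −5.12 on the log2 scale at P20 (SE 1.13, edgeR adjusted *P* = 0.0461) and at −5.97 at P40 (SE 0.91, edgeR adjusted *P* = 0.00220). *Gnat2*, encoding cone transducin, fell at P20 (−1.69, adjusted *P* = 0.0297), and *Pde6h*, encoding a subunit of the cone phosphodiesterase, at P40 (−5.95, adjusted *P* = 0.00888). *Arr3* was at −4.73 at P20 (adjusted *P* = 0.0545) and fell at P40 (−4.83, adjusted *P* = 0.00107). Of the rod genes, 0 of 13 tested passed at P20 with edgeR, where 5 had an unadjusted *P* under 0.05 (2964 of 16303 among all genes), and 4 of 12 fell at P40, led by *Sag* (−4.95) and *Pde6g* (−4.78). *Gnat1* (rod transducin) was at −1.36 at P20 (adjusted *P* = 0.178) and −0.35 at P40 (adjusted *P* = 0.777).

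Of 38 further genes used by both photoreceptor types, 2 of 35 tested fell at P20 and 12 of 37 at P40, and 1 rose at each age. *Tulp1*, whose protein serves transport to the outer segment, and *Cdhr1*, encoding a cadherin at the base of the outer segment, fell at P20 (−1.63 and −1.19). *Cabp4*, a calcium-binding protein of the synaptic terminal, and *Impg1*, a matrix proteoglycan, fell at P40 (−5.49 and −4.84). In P40 Nrf2 eyes *Cabp4* held 3 counts or fewer in 4 of 9 libraries and *Impg1* in 6 of 9, so these folds depend on how low counts are treated. The gene that rose was *Rom1*, the tetraspanin partner of *Prph2*, by 1.97 on the log2 scale at P20 (SE 0.36, adjusted *P* = 0.0252) and by 1.51 at P40 (SE 0.25, adjusted *P* = 0.00343). Its level was 42.0 to 138 CPM in P20 control eyes and 105 to 576 CPM in P20 Nrf2 eyes, with the Nrf2 eye the higher one in 6 of 7 mice (mouse 4 was the exception). *Rpe65*, the isomerase of the visual cycle in the RPE, fell at both ages (−2.17, adjusted *P* = 0.0198, and −2.82, adjusted *P* = 0.000281), while *Best1* was at −0.23 (adjusted *P* = 0.806) and 0.95 (adjusted *P* = 0.0624). Of the 13 RPE genes, 1 fell at P20 and 5 at P40, *Rpe65* among them, and 0 rose. Genes of other cell types were read in the same comparison. The 11 inner retina genes tested had a median of −1.55 at P20 (9 lower) and −0.50 at P40 (6 lower), with 0 called at either age with edgeR and 1 and 0 of them at an unadjusted *P* under 0.05. Of 10 macrophage and microglia genes, 0 were called at P20, where 2 had an unadjusted *P* under 0.05, and 6 rose at P40 (median 1.65), with a summed level of 95.3 to 469 CPM in P40 control and 159 to 548 CPM in P40 Nrf2 eyes. The part of these cells in the levels of the 10 photoreceptor genes was not tested. The number of all genes called at P20 depended on single mice, from 111 without mouse 7 to 1999 without mouse 4, against 556 with all mice.

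The change with age was not used to choose the genes and was tested. Age cannot be told apart here from the letter series of the library names. In control eyes, 9 of the 10 genes had a higher fitted level at P40 than at P20, with a median log2 fold change of 0.87 (0 over all genes), and 1 gene passed the threshold. In this comparison 14.8% of all genes passed, 8.34% as higher, so that 1 of 10 was near the background. *Guca1a* rose, with 34.8 CPM (median) at P20 and 86.5 CPM at P40, or 1.43 on the log2 scale (SE 0.35, edgeR adjusted *P* = 0.0239). The groups overlapped between 34.3 and 55.0 CPM. The adjusted *P* was 0.0504 without P20 control mouse 3 and 0.0633 (log2 fold change 1.49) without P20 mice 3 and 4. Over all settings it ranged from 0.000871 to 0.0633. Without mice 3 and 4, 158 of 17254 genes passed, against 2483 of 16832 with all mice. The control eyes are the same as those of the comparison with Nrf2.

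*Rdh12* came next at 1.01 (SE 0.33), with an edgeR adjusted *P* of 0.0506, which ranged from 0.0140 to 0.0976 over the settings. *Pdc* was at 1.52 (SE 0.74, adjusted *P* = 0.153), *Aipl1* at 1.20 (SE 0.76, adjusted *P* = 0.268), *Nxnl2* at 0.93 (SE 0.71, adjusted *P* = 0.362), and *Nxnl1* at 0.80 (SE 0.37, adjusted *P* = 0.128). *Prph2*, *Rcvrn*, *Crx*, and *Rbp3* were within 1 SE of 0. *Rbp3* was at −0.08 (SE 0.82), and without P20 control mouse 1 it was at 0.47. *Crx* was at 0.37 (SE 0.71), and without P40 control mouse 9 it was at −0.11. The spread of single control eyes, such as the 10.7 to 468 CPM of *Rbp3* at P40, was wide beside these differences.

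In Nrf2 eyes, 9 of the genes passed the filter on low counts (*Pdc* did not), and 0 of 9 passed the threshold between P20 and P40 with edgeR (0.502% of all genes passed, 0.167% as higher). An unadjusted *P* under 0.05 was seen for 4326 of all 16745 genes, a like share to the 2 of 9 here, which were *Guca1a* at 1.75 (SE 0.73, adjusted *P* = 0.1499) and *Rdh12* at −0.58 (SE 0.22, adjusted *P* = 0.122). Without the P40 Nrf2 eye of mouse 8, *Guca1a* was at 0.66, and with limma voom and quality weights at 0.22. *Aipl1* was at 1.10 (SE 0.91, adjusted *P* = 0.453), at 0.24 without the P40 Nrf2 eye of mouse 6, and at 2.64 without the P20 Nrf2 eye of mouse 2. With DESeq2, 1 gene passed, *Aipl1* (2.47, adjusted *P* = 0.0172). The other genes were within 1 SE of 0.

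**Figure D4:**
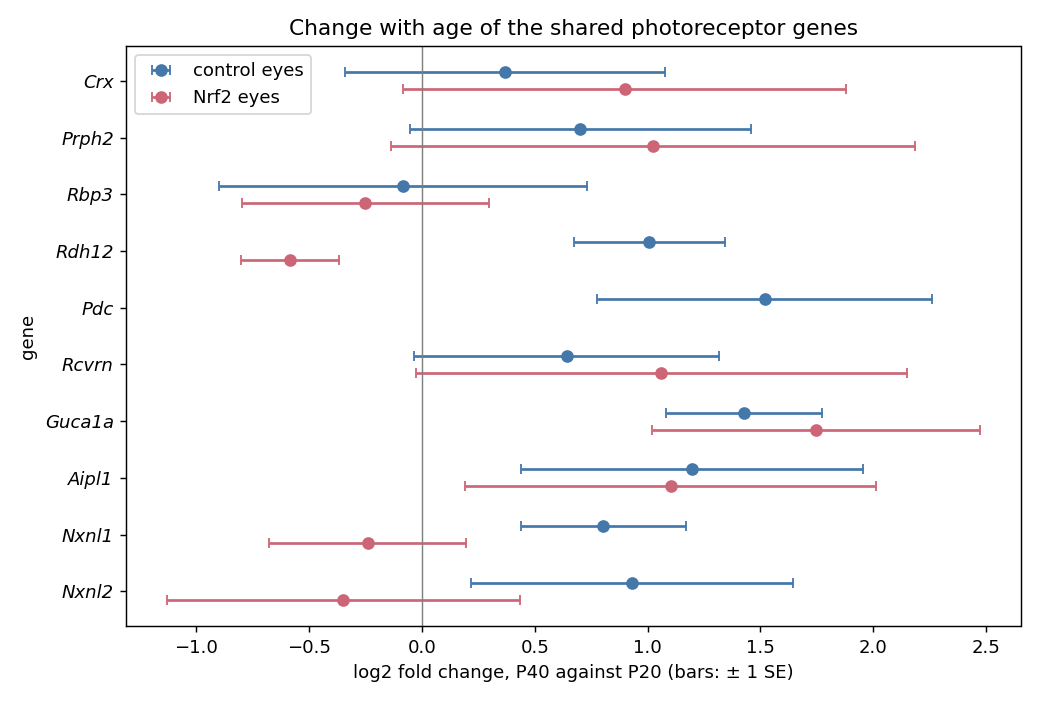
Log2 fold change from P20 to P40 (horizontal axis) of each gene with blue for control and red for Nrf2 eyes, with bars of 1 SE; *Pdc* has no value in Nrf2 eyes because it did not pass the filter. *Rdh12* lies at 1.01 in control and −0.58 in Nrf2 eyes, whereas the bars of *Rbp3* include 0 in both.

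Rod and cone genes were compared over the same ages. In control eyes, 3 of 13 rod genes tested fell, against 6.42% of all genes. Among them was *Nr2e3*, encoding a repressor of cone genes in rods (−2.54, SE 0.75, adjusted *P* = 0.0375). The level of *Nr2e3* was low, with medians of 0.902 CPM in P20 and 0.128 CPM in P40 control eyes. At P40, 4 of 9 control libraries held 3 counts or fewer of it. Of the cone genes, 0 of 12 passed with edgeR, 4 had an unadjusted *P* under 0.05 (5917 of 16832 among all genes, a like share), and the median log2 fold change was 1.02. Of the other genes common to both types, 2 of 37 passed as higher, a share below the 8.34% of all genes, and these were *Tulp1* (1.71, adjusted *P* = 0.0274) and *Rpgrip1* (1.08, adjusted *P* = 0.0430), the latter encoding a protein of the connecting cilium. In Nrf2 eyes *Tulp1* was the 1 gene of these lists past the threshold (1.98, adjusted *P* = 0.0428). Inner retina genes had a median of −1.44 between the ages in control eyes, with 1 of 12 called lower, and of 1.62 in Nrf2 eyes, with 0 of 10 called with edgeR and 1 at an unadjusted *P* under 0.05.

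Whether the Nrf2 effect differed between the ages was tested in 1 fit over all 32 libraries. This difference is built from the same eyes as the comparison that took part in choosing *Rbp3*, *Nxnl1*, and *Aipl1*, so it is not independent of that choice, and no *P* value is given for these 3 genes. With edgeR, 0 of the 10 genes passed, 2 had an unadjusted *P* under 0.05, and of all 17959 genes 1 passed (0.00557%) and 429 had an unadjusted *P* under 0.05. *Rdh12* had the smallest unadjusted *P*, with a log2 difference of −1.51 (SE 0.36, unadjusted *P* = 0.000513, adjusted *P* = 0.9995), from a higher level in Nrf2 eyes at P20 to a lower one at P40. With DESeq2 its adjusted *P* was 0.0492 (−1.53), and without P20 mice 3 and 4 the edgeR value was −1.79 (SE 0.37, adjusted *P* = 0.787). *Pdc* was at −3.47 (SE 1.56, unadjusted *P* = 0.0393), and *Nxnl2* at −1.23 (SE 1.10), both with an adjusted *P* of 0.9995. *Nxnl1* was at −1.002 (SE 0.49). *Rbp3*, *Aipl1*, *Crx*, *Prph2*, *Rcvrn*, and *Guca1a* were within 1 SE of 0, and this does not show that their Nrf2 effects were equal at both ages.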

How the data were processed

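Both eyes of 16 mice labelled *rd1* were sequenced, 7 mice at P20 and 9 at P40. The authors deposited estimated counts for each gene as whole numbers, with no normalization. The methods describe STAR and featureCounts on mm10 with Ensembl 91 and, in parallel, Salmon estimates for DESeq2; the submitters' processing notes name FastQC and Salmon 0.9.1. The table names no counter, and its values were treated as Salmon estimates. Amplification can add noise to low counts, and the table keeps no length or GC correction.

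Of 34453 genes, 34401 had a symbol and 4268 had no count in any library. Total counts were 16548332 to 50542797 per library. Coordinates came from a GRCm38 annotation and promoters from RefSeq. In R 4.3.3, genes were kept by filterByExpr, scaled by TMM, and tested with edgeR 4.0.16 (quasi-likelihood), with *P* values adjusted by Benjamini-Hochberg over all genes and a threshold of 0.05. Comparisons of eyes and of the Nrf2 effect between ages had the mouse as a block; comparisons between ages, in different mice, had none. Each library is 1 eye. SE was derived from the F statistic. CPM used TMM sizes, and log2 CPM a prior count of 2. Alternatives were RLE, DESeq2 1.42.0, voom (limma 3.58.1) with quality weights, no filter, no block, and leaving out libraries. The fits were tested first on simulated data.

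The genes and lists were chosen with earlier results of these data known. All 10 were named, with the 2 largest changes per direction and list among called genes, 5 reference genes (*Gnat1*, *Arr3*, *Opn1sw*, *Rpe65*, *Best1*), and the 5 most correlated genes. A gene that this rule also names is not reported here. Markers named beside a result (*Rgr*, *Ttr*, *Clu*, *Dkk3*, *Aqp4*, *Kcnj10*, *Slc1a3*, *Slc24a1*, *Slc6a9*, *Otx2*, *Unc119*, *Abca4*) were chosen after their values were seen. The pairing of eyes comes from the labels. At P20, deviations from the group means had a mean *r* of 0.0131 between the eyes of a mouse and 0.0009 between mice, with 2 of 7 mice over 0.1. At P40 these were 0.107 and −0.0047, with 3 of 9 mice over 0.1.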

Additional observations from a re-analysis of the deposited data

How the results depend on the processing

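The fitted sign of each of the 10 genes in the comparison of Nrf2 and control eyes was the same under every alternative run. The median log2 fold change ranged from −3.23 to −2.48 at P20 and from −4.00 to −3.29 at P40 over the other settings, and from −3.12 to −2.38 and from −3.66 to −3.02 when 1 mouse was left out. Without the block for the mouse that pairs the eyes, these medians were −2.48 at P20 and −3.43 at P40, and 0 of 10 genes passed in the difference between ages. No paired analysis was possible for age because the ages are different mice.

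Between the ages in control eyes, the number of the 10 genes passing was 2 with RLE normalization, 2 with DESeq2, and 0 without P20 mice 3 and 4, and ranged from 0 (without P20 control mouse 3) to 2 (without P40 control mouse 4 or 8) when 1 eye was left out. *Guca1a* passed in 15 of 16 fits with 1 eye left out and in 4 of 5 other settings. *Rdh12* passed with RLE (1.03, adjusted *P* = 0.0440), with DESeq2 (1.03, adjusted *P* = 0.0140), and in 2 of 16 fits with 1 eye left out. When 1 eye was left out, *Rbp3* ranged from −0.69 to 0.47, being above 0 without P20 control mouse 1 (0.47) or 4 (0.23) and without P40 control mouse 3 (0.02), 5 (0.03), 6 (0.04), 7 (0.06), or 8 (0.07). *Crx* ranged from −0.11 to 0.95. With DESeq2, 1 gene passed between ages in Nrf2 eyes (*Aipl1*, 2.47) and 1 in the difference between ages (*Rdh12*, −1.53). The causes were not tested. Over all genes, the count passing between ages in control eyes ranged from 473 to 4273 when 1 eye was left out. *Pdc*, *Nxnl2*, *Rcvrn*, and *Prph2* held 3 counts or fewer in up to 5, 3, 2, and 2 libraries of a group, and *Aipl1* in 1, where depth limits their folds. *Guca1a* between ages in Nrf2 eyes moved from 1.75 to 0.22 with limma voom.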
